A study of Mus musculus with 9 samples.

Results

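The genes described here encode 7 subunits of the GABA-A receptor: Gabra2, Gabra3, Gabra4 and Gabra5 of the alpha class, Gabrb1 and Gabrb2 of the beta class, and the delta subunit gene Gabrd. They were taken by symbol from the 45706 gene identifiers of the deposited table of raw read counts, in which each matched 1 row, and all 7 passed the filter on low counts. The table covered bulk poly(A)-primed RNA sequencing of the central nervous system of C57BL6/J mice, for which no treatment is given, in 3 libraries at each of 3 stages: E9.5 and E14.5, counted in days of embryonic development, and P60, counted in days after birth. The tissue differed between stages: the head trimmed of tissue outside the neuroectoderm at E9.5, the brain without meninges at E14.5, and the adult brain after anaesthesia with ketamine and xylazine and perfusion with saline at P60. Because the labels do not say whether the libraries of a stage came from separate animals, or whether embryos were pooled, p-values measure the spread between these libraries, which may be technical.

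GABA-A receptors are chloride channels opened by GABA, the main inhibitory transmitter of the adult brain, and are built from alpha, beta and gamma or delta subunits. GABA binds between an alpha and a beta subunit, and the alpha subunit sets much of the receptor's affinity and its place in the cell. Receptors with Gabra2 or Gabra3 products are known mainly from synapses, those with the Gabra5 product largely from outside synapses (in hippocampus above all), and the Gabra4 and Gabrd products meet in receptors outside synapses of thalamus and dentate gyrus that carry tonic inhibition. In immature neurons chloride is high and GABA can depolarise the cell, a state that ends as the potassium-chloride cotransporter Slc12a5 takes over from the importer Slc12a2.

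Library totals ran from 30481975 to 35619093 counts. The summed level of 10 neuron marker genes, in CPM (read counts relative to the library total, scaled with edgeR's TMM factors), was 334.3 to 386.7 at E9.5, 5466 to 6767 at E14.5 and 8251 to 8472 at P60. Markers of progenitors (8 genes) summed to at least 3212 CPM at E9.5 and at most 151.4 at P60, and those of oligodendrocytes (6 genes) to at most 62.7 CPM at E9.5 and at least 13570 at P60. At P60 the cerebellar granule cell markers Cbln3 and Fat2 were near 0, at 0.467 ± 0.280 and 0.198 ± 0.106 CPM (SD, n = 3), and Gabra6, the alpha subunit typical of those cells, had 3 reads in all 3 libraries together, although the labels name the adult tissue as brain. The 6 markers of that cell type summed to 228.1 to 258.7 CPM at P60, of which Calb2 (151.2 on average), Cbln1 (44.1), Zic1 (32.9) and Zic2 (13.4), genes also used by other neurons, made up nearly all. In 1 library of each stage (replicate 1 at E9.5 and at E14.5, replicate 2 at P60) gene counts lay farther from those of the other 2 than these lay from each other. In bulk tissue fewer cells of a type and less RNA per cell cannot be told apart, so every level below is one of the whole tissue sample.

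The 7 genes lie on 5 chromosomes (GRCm38, GENCODE M21). Gabra2 (chromosome 5, 70957597 to 71095849, minus strand), Gabra4 (71569749 to 71658308, minus strand) and Gabrb1 (71658113 to 72149037, plus strand) share a cluster with Gabrg1, and the start sites of Gabra4 and Gabrb1 are 195 bases apart on opposite strands. Gabra5 (chromosome 7, 57407672 to 57510059, minus strand) is 20483 bases from Gabrg3. Gabrb2 (chromosome 11, 42419757 to 42629028, plus strand) lies beside Gabra6, Gabra3 (X chromosome, 72432681 to 72656848, minus strand) lies between Gabre and Gabrq, and Gabrd (chromosome 4, 155384980 to 155398112, minus strand) lies 122221391 bases from the nearest subunit gene of its chromosome. The strand setting of the counts was not given in the sources used here. Reads from the 2 strands could therefore not be told apart over 46 exon bases that Gabra4 and Gabrb1 share (0.76% and 0.33% of their exons) and over the 148 exon bases (4.98%) that Gabra5 shares with an antisense gene, Gm9962, which held 433 counts over all libraries.

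The sequences before a start of 4 members that all had their larger fold between E9.5 and E14.5 are shown to let their starts be compared. From E14.5 to P60 their log2 fold changes were 0.40 (Gabra2), 1.61 (Gabra3), 2.91 (Gabra5) and 0.94 (Gabrb2, not called). The windows of Gabrb1, with the same order of steps, and of Gabra4, with the larger fold after E14.5, are not shown. The sequences shown are the 250 bases before an annotated start in RefSeq's table for GRCm38.p6, which held 6 of the 7 members (not Gabrd), written 5′ to 3′ on the gene's strand. The table gave 1 start for Gabra2 and Gabra5, 2 for Gabra3 and 3 for Gabrb2, of which the most upstream is shown. Capitals mark matches on either strand to the CRE (TGACGTCA), the EGR site (GCGNGGGCG), the GC box (GGGCGG) or the TATA box (TATAAA). The windows lie at chr5:71095850-71096099 (minus strand) for Gabra2, chrX:72656920-72657169 (minus) for Gabra3, chr7:57510060-57510309 (minus) for Gabra5 and chr11:42420190-42420439 (plus) for Gabrb2. That of Gabrb2 lies downstream of the GENCODE start given above (42419757), inside the gene.
Gabra2: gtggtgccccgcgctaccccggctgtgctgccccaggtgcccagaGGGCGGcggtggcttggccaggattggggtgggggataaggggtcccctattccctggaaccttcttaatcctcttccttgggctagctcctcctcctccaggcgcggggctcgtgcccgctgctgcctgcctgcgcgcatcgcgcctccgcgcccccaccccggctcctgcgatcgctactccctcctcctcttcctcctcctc
Gabra3: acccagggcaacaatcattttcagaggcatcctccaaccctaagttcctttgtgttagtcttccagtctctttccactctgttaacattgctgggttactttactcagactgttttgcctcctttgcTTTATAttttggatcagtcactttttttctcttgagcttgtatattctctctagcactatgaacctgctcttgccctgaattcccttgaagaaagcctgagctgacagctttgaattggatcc
Gabra5: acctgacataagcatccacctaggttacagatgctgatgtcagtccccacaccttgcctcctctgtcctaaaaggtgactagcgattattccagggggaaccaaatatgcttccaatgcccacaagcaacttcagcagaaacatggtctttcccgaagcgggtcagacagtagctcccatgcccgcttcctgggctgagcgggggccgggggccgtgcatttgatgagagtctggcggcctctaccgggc
Gabrb2: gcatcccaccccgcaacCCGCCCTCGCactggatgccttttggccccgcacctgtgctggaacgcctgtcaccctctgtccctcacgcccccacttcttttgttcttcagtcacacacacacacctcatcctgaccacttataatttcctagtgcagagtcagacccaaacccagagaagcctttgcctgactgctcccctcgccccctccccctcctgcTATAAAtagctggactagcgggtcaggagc
The 4 windows differed in base composition. Gabra2's was 70.0% G and C with 18 CpG dinucleotides and 1 GC box, whereas Gabra3's was 42.4% G and C with no CpG and 1 TATA box match, on the strand opposite to the gene. Gabra5's (56.4%, 9 CpG) held none of the capitalised motifs, and Gabrb2's (58.8%, 8 CpG) held 1 TATA box and 1 EGR match that overlaps its GC box. The windows of the other 2 Gabrb2 starts (54.0% and 36.8% G and C) held none of the motifs, and that of the other Gabra3 start, which overlaps the one shown, held the same TATA box match. Over all 32851 windows of the table the median was 52.4% G and C with 6 CpG, and 32.7% held a GC box, 12.4% a TATA box, 4.7% an EGR match and 1.55% a CRE. The E-box CANNTG, not capitalised, was found in 66.2% of all windows, at 1 place in Gabra2's, 2 in Gabra5's and 1 in Gabrb2's. A match is a description of the letters and not a binding site.

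All 7 subunit genes were called higher at E14.5 than at E9.5, and 6 of 7 were called higher again at P60 than at E14.5. Gabrb2 was not called in that second step, although its fitted log2 fold change was 0.94, against 0.40 for Gabra2, which was called. The members took different paths on the log2 scale. Gabra2 made nearly all of its rise before E14.5, and Gabra4 and Gabrd made most of theirs after it. Gabra3, Gabra5 and Gabrb1 rose in both steps with the larger fold in the first. In CPM these 3 gained more after E14.5, with stage means of 4.33, 58.4 and 178.0 (Gabra3), 0.535, 13.6 and 102.4 (Gabra5), and 0.621, 15.1 and 42.0 (Gabrb1). In edgeR's quasi-likelihood test with Benjamini-Hochberg adjustment over 17971 genes, 34.0% of all genes were called higher at E14.5 than at E9.5, 36.7% were higher at P60 than at E14.5 and 42.0% were higher at P60 than at E9.5. The members' counts, 7, 6 and 7 of 7, stand beside those shares, and none was lower in any comparison. Their median log2 fold change was 4.46 in the first step and 1.61 in the second, against 0.026 and -0.063 over all genes. The first of these medians is the fitted value of Gabrd, which rests on 3 reads at E9.5, and over the other 6 members it was 4.19. Both steps use the same E14.5 libraries, so a high or low E14.5 value enters them with opposite sign.

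**Figure D1:**
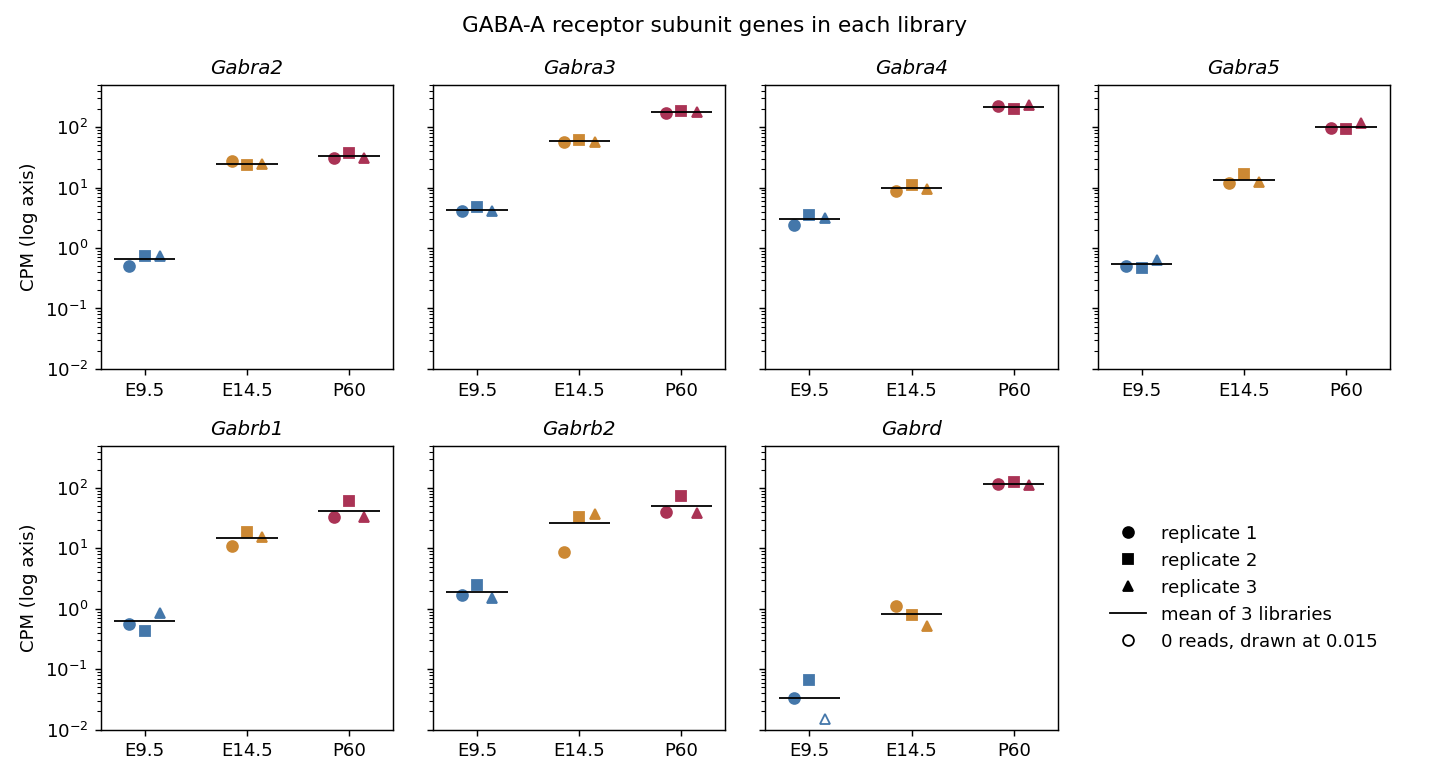
Level of each subunit gene in each library in CPM on a log axis, with E9.5, E14.5 and P60 from left to right, a symbol for each replicate number and a bar at the mean of 3 libraries. Gabra2 has a mean of 25.1 CPM at E14.5 and 33.1 CPM at P60, whereas Gabra4 goes from 9.75 to 218.5 CPM, and Gabrb2 spans 8.68 to 36.5 CPM within E14.5; the open symbol marks the E9.5 library without a Gabrd read.

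Gabra2, whose product is the alpha subunit of many receptors at the axon initial segment and other synapses, was at 0.502, 0.730 and 0.734 CPM in E9.5 replicates 1 to 3, at 27.3, 23.5 and 24.3 CPM at E14.5, and at 30.9, 37.1 and 31.3 CPM at P60. No library of a stage overlapped with those of another, but the gap between the highest E14.5 and the lowest P60 library was small. The log2 fold change was 5.25 ± 0.20 (SE) from E9.5 to E14.5, a 38.0-fold rise (edgeR adjusted p = 1.1e-08). From E14.5 to P60 it was 0.40 ± 0.15 (adjusted p = 0.03). This second call was lost without E14.5 replicate 2 (adjusted p = 0.11), without E14.5 replicate 3 (adjusted p = 0.093), without P60 replicate 2 (adjusted p = 0.074) and when libraries were scaled by their totals alone (adjusted p = 0.12).

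Gabra3, the alpha subunit gene of the X chromosome, known from monoaminergic, reticular thalamic and developing cortical neurons, had 4.05, 4.81 and 4.12 CPM at E9.5, 57.1, 62.2 and 55.9 CPM at E14.5, and 171.3, 184.9 and 177.9 CPM at P60. The libraries of each stage lay close together and far from the other stages. It rose by 3.75 ± 0.14 on the log2 scale in the first step (edgeR adjusted p = 1.1e-08) and by 1.61 ± 0.13 in the second (adjusted p = 8.6e-07).

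Gabra4, which pairs with the delta subunit in forebrain and whose receptors do not respond to diazepam, had 2.41, 3.48 and 3.10 CPM at E9.5 and 8.80, 11.1 and 9.32 CPM at E14.5. At P60 it reached 220.3, 200.0 and 235.1 CPM, with all P60 libraries far above those of both embryonic stages. Its rise to E14.5, 1.70 ± 0.17 on the log2 scale (3.25-fold, edgeR adjusted p = 8.3e-06), was the lowest fitted value of the 7 in that step. From E14.5 to P60 it was 4.48 ± 0.18 (adjusted p = 9.3e-09), the second highest after Gabrd.

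Gabra5, the alpha subunit of hippocampal receptors outside synapses, had 0.502, 0.464 and 0.638 CPM at E9.5, 11.9, 16.7 and 12.3 CPM at E14.5, and 97.2, 92.4 and 117.8 CPM at P60, with no overlap between stages. It rose by 4.66 ± 0.23 on the log2 scale to E14.5 (edgeR adjusted p = 4.4e-08) and by 2.91 ± 0.18 from there to P60 (adjusted p = 1.6e-07). From E9.5 to P60 the log2 fold change was 7.57 ± 0.24, against 5.65 ± 0.20 for Gabra2, 5.36 ± 0.15 for Gabra3 and 6.19 ± 0.20 for Gabra4.

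Of the beta subunits, which complete the GABA site and carry the signals for receptor trafficking, Gabrb1 had 0.569, 0.431 and 0.862 CPM at E9.5, 11.0, 18.6 and 15.7 CPM at E14.5, and 33.4, 60.1 and 32.6 CPM at P60. Replicate 1 was the lowest E14.5 library and replicate 2 the highest at P60, but stages did not overlap. It rose by 4.59 ± 0.36 on the log2 scale in the first step (edgeR adjusted p = 1.2e-06) and by 1.48 ± 0.28 in the second (adjusted p = 0.00068).

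Gabrb2 had 1.67, 2.49 and 1.5 CPM at E9.5, 8.68, 33.5 and 36.5 CPM at E14.5, and 39.5, 73.2 and 38.4 CPM at P60. The E14.5 libraries were split, replicate 1 being far below the other 2, and the highest E14.5 library lay just under the lowest P60 library. Its log2 fold change was 3.80 ± 0.53 from E9.5 to E14.5 (edgeR adjusted p = 8.5e-05). From E14.5 to P60 it was 0.94 ± 0.45, which did not pass the threshold (adjusted p = 0.078). That value moved to 0.52 without E14.5 replicate 1 (adjusted p = 0.12), to 0.57 without P60 replicate 2 (adjusted p = 0.3) and to 1.25 without E14.5 replicate 3 (adjusted p = 0.047), and it was called with DESeq2 (1.02, adjusted p = 0.037) and with upper quartile scaling (1.09, adjusted p = 0.044). The E14.5 library with the low Gabrb2 and Gabrb1 values was also the lowest of its stage in 7 of the 10 neuron markers, such as Syt1 (89.7 CPM, against 167.5 and 156.2) and Map2 (728.2, against 1282 and 1215). It was the highest in the other 3, among them Tubb3 (3428, against 2355 and 2212), which made its summed neuron markers the highest of the stage (6767, against 5850 and 5466). It was also the highest in 6 of 8 progenitor markers and the lowest in 6 of 8 non-neural markers. P60 replicate 2, with the high Gabrb2 and Gabrb1 values, was the highest of its stage in 7 of the 10 neuron markers and in all 8 progenitor markers. The part of tissue composition in the Gabrb2 values was not tested.

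Gabrd, whose product replaces the gamma subunit in receptors outside synapses and gives them high GABA affinity and sensitivity to neurosteroids, had 1, 2 and 0 reads at E9.5 and 37, 28 and 18 reads at E14.5. At P60 it had 115.0, 123.4 and 110.8 CPM. The E14.5 reads come to 1.12, 0.784 and 0.518 CPM, so the gene was near the limit of detection at E9.5, low at E14.5 and at 116.4 ± 6.42 CPM (SD, n = 3) in the adult. Scaled for depth, the E14.5 reads were 24.4 times those at E9.5 (95% exact interval 8.06 to 120.6, from 83 against 3 reads) and the P60 reads 145.5 times those at E14.5 (117.3 to 182.8). Against E9.5 the P60 ratio was 3547 (1213 to 17200). These intervals cover counting error only. Across libraries the log2 fold change from E14.5 to P60 was 7.17 ± 0.28 (edgeR adjusted p = 8.7e-09), the largest of the 7 genes in that step, and the first step was also called (adjusted p = 3.4e-05). Gabrd is known from cerebellar granule cells among others. Of the 6 markers of that cell type Cbln3 and Fat2 were near 0 at P60, and 4, genes also used by other neurons, were not, as given above. Gabra6 had 3 reads in all 3 P60 libraries together. The part of those cells in the Gabrd level was not tested.

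**Figure D2:**
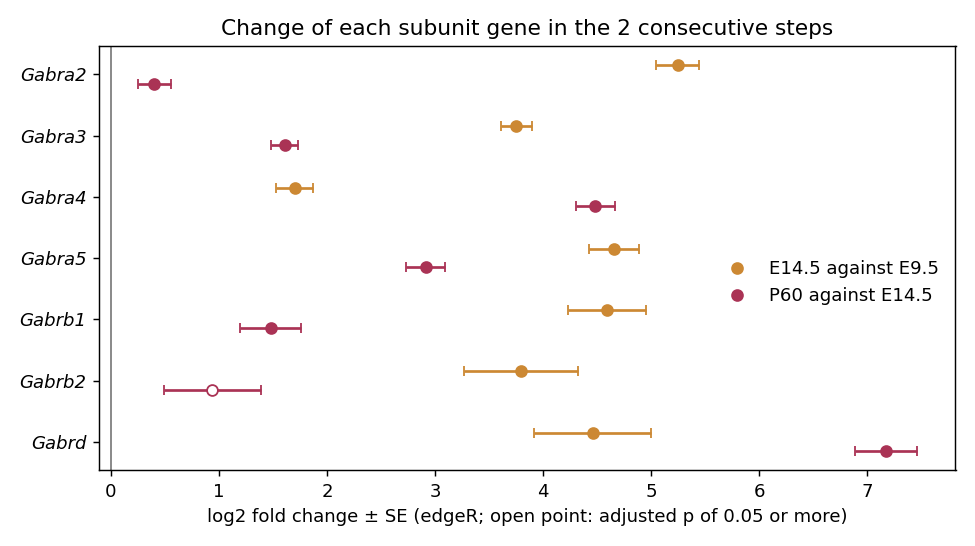
Fitted log2 fold change of each subunit gene (points) with its SE (bars), E14.5 against E9.5 in orange and P60 against E14.5 in red; the open point marks the value that did not pass the threshold. Gabra2 (5.25, then 0.40) and Gabra4 (1.70, then 4.48) have the steps in opposite order of size, and the Gabrd value in the first step rests on 3 reads at E9.5.

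To compare genes with each other, levels were divided by the length of the merged exons (RPKM, CPM per kilobase). Gabra3 was first at every stage, at 1.10 RPKM at E9.5, 14.9 at E14.5 and 45.4 at P60. At E9.5 Gabra4 followed with 0.493 RPKM, then Gabrb2 (0.297), Gabra5 (0.180), Gabra2 (0.0858), Gabrb1 (0.0449) and Gabrd (0.0116), with no overlap between neighbours. At E14.5 Gabra5 (4.57), Gabra2 (3.28), Gabra4 (1.60), Gabrb1 (1.09) and Gabrd (0.280) followed Gabra3 without overlap among themselves. Gabrb2 (4.13) ranged from 1.37 to 5.74 RPKM there, across the libraries of Gabra5, Gabra2 and Gabra4. The P60 order differed: Gabrd (40.5), Gabra4 (35.9) and Gabra5 (34.5) overlapped with each other, and Gabrb2 (7.92), Gabra2 (4.33) and Gabrb1 (3.04) lay far below, the last 2 overlapping. Divided by the longest transcript or by the coding length instead, Gabra4 came first at P60 with 53.2 or 126.0 RPKM, overlapping Gabra3. Other ranks also depended on the length. At E9.5 Gabra4 and Gabrb2 overlapped with both of the other lengths. There the coding length gave Gabra2 (0.484 RPKM), Gabrb1 (0.437) and Gabra5 (0.385) in that order, overlapping with each other. With the coding length Gabra2 (18.5 RPKM) was second at E14.5, Gabrb1 (10.6) stood above Gabra5 (9.79) and Gabra4 (5.62), and at P60 Gabra2 (24.5) was last, overlapping Gabrb1 (29.6). With every length used Gabra3 was first at both embryonic stages and Gabrd last.

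Within the alpha class the balance moved with stage. Of the RPKM summed over the 6 alpha subunit genes, Gabra3 held 57.8% ± 2.77 at E9.5, 57.3% ± 1.49 at E14.5 and 26.5% ± 0.667 at P60 (SD, n = 3 each). Gabra4 held 25.7% ± 2.29, then 6.15% ± 0.315 and then 21% ± 1.73, a dip at E14.5 that came while its own level rose. The Gabra2 share was highest at E14.5 (4.47% ± 0.600, 12.7% ± 1.78 and 2.53% ± 0.243). Gabra5 went from 9.5% ± 1.89 to 17.5% ± 2.07 and 20.1% ± 2.36, its E14.5 and P60 libraries overlapping. With the coding length the Gabra2 share was 8.74%, 23.9% and 4.39%, again highest at E14.5, and the Gabra5 share at P60 was 13.3%. Together the 4 members made up 97.5% ± 0.623, 93.6% ± 1.76 and 70.1% ± 3.01 of alpha RPKM. Shares are descriptions and were not tested.

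**Figure D3:**
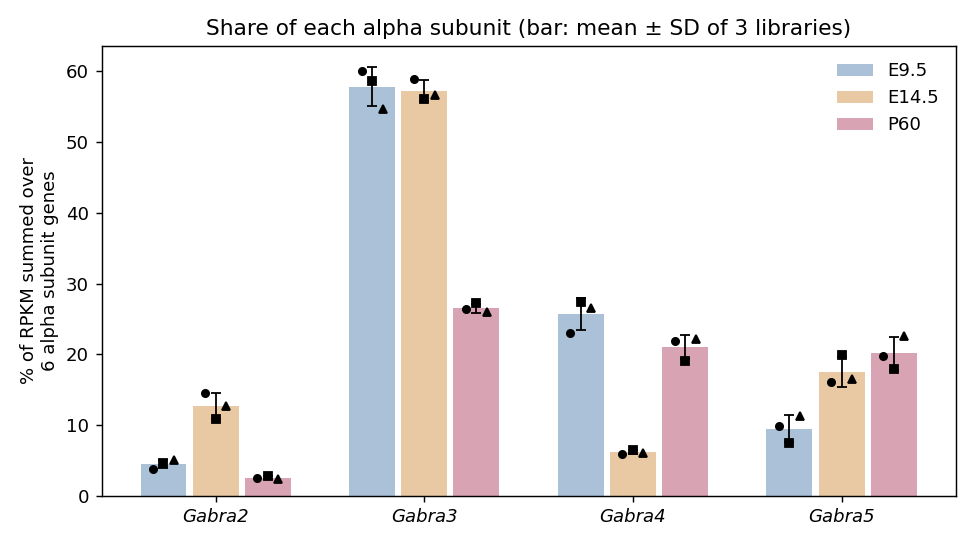
Share of each alpha subunit gene in the RPKM summed over 6 alpha genes, in percent; bars are the mean and lines the SD of 3 libraries, and circles, squares and triangles are replicates 1, 2 and 3. Gabra3 falls from 57.3% at E14.5 to 26.5% at P60, and Gabra4 dips to 6.15% at E14.5.

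Ratios between pairs of members were tested per library as log2 of (RPKM + 1) of the first gene over the second, with a two-sided exact permutation test over the 1680 assignments of the 9 libraries to 3 stages, whose smallest p is 0.0036. Of 5 pairs, 4 reached it (adjusted p = 0.0045 over the 5 pairs). The pairs were chosen with earlier results of these data known, a choice that the adjustment over 5 pairs does not cover. Gabra4 over Gabra2 was 0.46 ± 0.07 at E9.5, -0.72 ± 0.19 at E14.5 and 2.79 ± 0.23 at P60 (SD, n = 3), turning sign between the stages. Gabra4 over Gabra5 was 0.34 ± 0.10, -1.09 ± 0.12 and 0.06 ± 0.09, lowest at E14.5 in every library. Gabrd over Gabra5 was -2.11 ± 0.27 at E14.5 and 0.23 ± 0.25 at P60, and Gabra2 over Gabra3 was -0.95 ± 0.06, -1.89 ± 0.14 and -3.12 ± 0.08.

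At E9.5, 6 of the 7 members were below 1 RPKM, so the added 1 pulls the ratios of that stage towards 0, and the p over 3 stages holds this as well. For Gabrd over Gabra5 both genes were far below 1 RPKM at E9.5 (0.0116 and 0.180), and no change from E9.5 to E14.5 is read from it. Gabrd was still below 1 RPKM at E14.5 (0.280), so the added 1 also pulls this ratio towards 0 there. The size of its change from E14.5 to P60 therefore depends on the added 1. For Gabra2 over Gabra3 the change from E9.5 to E14.5 turned from -0.94 to 0.55 with 0.1 added instead, whereas the change from E14.5 to P60 (-1.23) kept its sign under every setting run. Gabra4 over Gabra2 and over Gabra5 fell to E14.5 and rose to P60 under each pseudocount and length. The fifth pair, Gabrb2 over Gabrb1, was 0.31 ± 0.11, 1.16 ± 0.67 and 1.12 ± 0.09, and did not pass (exact permutation p = 0.12, adjusted p = 0.12). Its E14.5 libraries read 0.40, 1.42 and 1.66, replicate 1 being apart. Without that library all 5 pairs had an exact permutation p and an adjusted p of 0.00357, the smallest that 8 libraries allow. Both genes of the fifth pair were also far below 1 RPKM at E9.5 (Gabrb2 0.297, Gabrb1 0.0449). Its p, with or without that library, holds the pull of the added 1 as well. No change from E9.5 to E14.5 is read from this pair either.

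In the beta class the 2 members held 29.3% ± 4.07 of the RPKM of 3 beta genes at P60, Gabrb2 with 21.2% ± 3.05 and Gabrb1 with 8.15% ± 1.01. Gabrb1's merged exons span 13838 bases, against 2875 to 7640 in the other members, which lowers its RPKM. With the coding length the P60 shares were 19.6% for Gabrb2 and 17.7% for Gabrb1. Gabrd held 2.36% ± 1.35 of the RPKM of the 3 gamma genes and itself at E14.5 and 49.99% ± 1.23 at P60. That adult share was 41.5% with the longest transcript and 32.4% with the coding length.

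The summed neuron markers also rose over the same stages, so each member was set against them, as CPM per 1000 CPM of the 10 markers. The sum joins genes that moved in different directions: all 10 rose to E14.5, but from E14.5 to P60 6 rose and 4 fell (Tubb3, Elavl4, Map2 and Stmn2). Its main part was Tubb3 at E14.5 (2665 CPM) and Snap25 at P60 (3149 CPM), so the values below depend on the markers chosen. On that scale Gabra2 went from 1.88 at E9.5 to 4.17 at E14.5 and 3.96 at P60, its E14.5 and P60 libraries overlapping. Gabrb2 had means of 5.40, 4.56 and 6.0 with overlapping libraries. Gabra4 (8.59, 1.64 and 26.1) was lower at E14.5 than at E9.5 in every library, while its CPM rose. Gabra3 (12.3, 9.76 and 21.3) was highest at P60, its embryonic libraries overlapping. Gabra5 (1.52, 2.28 and 12.3), Gabrb1 (1.77, 2.56 and 5.01) and Gabrd (0.095, 0.131 and 13.9) were highest in the adult. These are descriptions without a test, and the part of cell numbers in any of them was not tested.

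**Figure D4:**
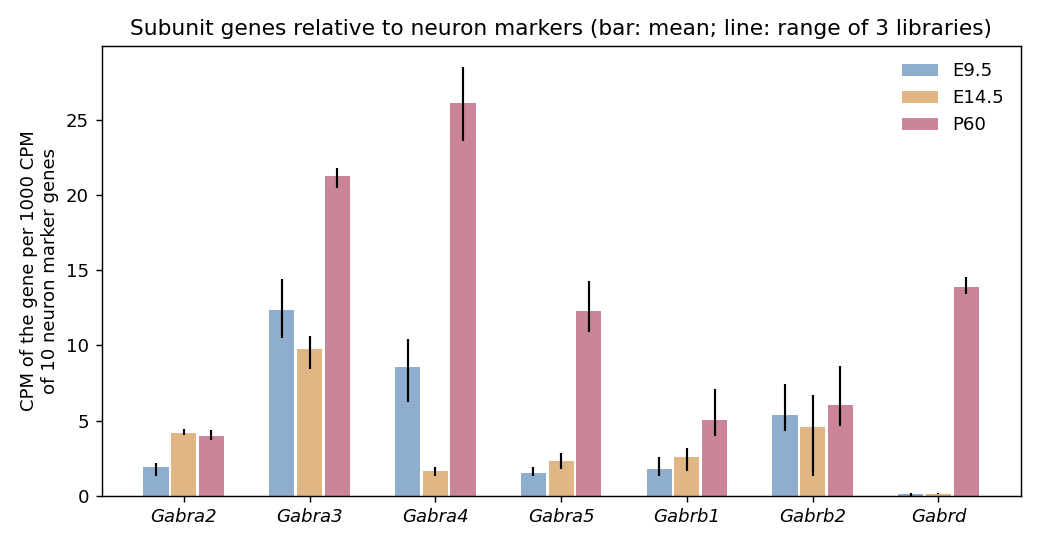
Level of each subunit gene per 1000 CPM of the 10 neuron marker genes; bars are the mean and lines the range of 3 libraries at each stage. Gabra4 falls from 8.59 to 1.64 and then reaches 26.1, and the ranges of Gabrb2 overlap between stages.

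The rest of the pathway was counted from lists of known components, to be read beside the shares of all genes: 34.0% higher and 30.7% lower at E14.5 than at E9.5, 36.7% and 39.4% at P60 than at E14.5, and 42.0% and 40.6% at P60 than at E9.5. Of the 12 other GABA-A subunit genes 8 passed the filter on low counts, of which 7 rose to E14.5 and 6 rose from E14.5 to P60, with none lower. Gabrg1, a gamma subunit gene, had 0.491, 6.21 and 61.5 CPM on average at the 3 stages, Gabrg3 had 0.284, 4.61 and 10.3 CPM, and Gabrq, the theta subunit gene, 0.306, 5.72 and 5.91 CPM. The epsilon subunit gene Gabre went the other way, from 2.41 CPM at E9.5 to 1.27 CPM at P60 (log2 fold change -0.92 ± 0.32, edgeR adjusted p = 0.02), and is the neighbour of Gabra3. Gabra6, Gabrp, Gabrr1 and Gabrr3 were too low to be tested.

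Of the 9 genes for GABA synthesis, transport and breakdown, 7 rose to E14.5 and 6 rose afterwards, with none lower. The vesicular transporter Slc32a1 rose by 8.44 ± 0.41 on the log2 scale in the first step and the GABA-making enzyme Gad1 by 7.14 ± 0.23, and in the second step the astrocytic transporter Slc6a11 rose by 2.89 ± 0.29. Slc12a5 rose by 3.73 ± 0.32 and then by 1.63 ± 0.29 (edgeR adjusted p = 2.2e-06 and 0.00037). Slc12a2 did not pass in the first step (-0.11 ± 0.14, adjusted p = 0.52) and rose by 0.56 ± 0.14 in the second (adjusted p = 0.0044). Of 6 genes for GABA-B receptors and their auxiliary subunits, 5 were higher and 1 lower at E14.5, then 4 higher and 2 lower at P60, with Gabbr2 up by 6.43 ± 0.55 and 1.93 ± 0.39.

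Of 22 genes for anchoring and trafficking of the receptors, 17 were higher and 2 lower at E14.5 than at E9.5, whereas 10 were higher and 9 lower at P60 than at E14.5, a split near that of all genes in that step. In the first step the postsynaptic adhesion protein gene Slitrk3 rose by 5.71 ± 0.37 on the log2 scale, Shisa7 by 4.88 ± 0.34 and Insyn2a (Fam196a in the annotation) by 4.18 ± 0.22, and radixin (Rdx), which anchors Gabra5 receptors outside synapses, fell by 0.92 ± 0.12. In the second step the autophagy-related trafficking genes Gabarapl1 and Gabarapl2 rose by 2.87 ± 0.16 and 1.80 ± 0.22 and the fusion ATPase gene Nsf by 2.67 ± 0.19. Lhfpl4, which links receptors to neuroligin 2, fell by 2.17 ± 0.25 in that step (edgeR adjusted p = 1.6e-05).

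The genes whose profile over the 9 libraries was nearest to each member were found among 12737 genes. The measure was the root mean square difference of log2 CPM (prior count of 2) after centring each gene on its mean. The prior count shrinks differences between genes with few reads, such as Gabrd and, named below, Tnfsf10 at E9.5 (0.033 CPM each). The genes nearest to Gabra2 were Fam19a2 (0.204), the GABA-making enzyme gene Gad2 (0.219) and Gdap1 (0.230). For Gabra3 they were Rell2 (0.127), Atl1 (0.154) and Trpc4 (0.173), and for Gabra5 Fam19a1 (0.133), Vxn (0.227) and Cend1 (0.253). Gabra4 had Ugt8a (0.271), an enzyme gene of myelin lipid synthesis, Tnfsf10 (0.291) and Gpr37 (0.293). Gabrb1 had Myrip (0.256), the potassium channel gene Kcnc1 (0.285) and Cadps (0.289), and Gabrb2 had Kcnma1 (0.312), Cntnap3 (0.351) and Fstl4 (0.355). Gabrd had Icam5 (0.273), an adhesion molecule gene of telencephalic neurons, the postsynaptic gene Nrgn (0.424) and the myelin gene Mag (0.557). All 6 oligodendrocyte markers, Mag among them, were higher at P60 than at E14.5, and their sum went from at most 88.6 to at least 13570 CPM in the step in which Gabra4 and Gabrd rose most. In the same step all 7 astrocyte markers (at most 325.6 CPM summed at E14.5, at least 3661 at P60) and all 6 microglia markers (at most 56.9, at least 302.6) were higher as well. The part of these cell types in the likenesses was not tested. Among the members themselves Gabra3 and Gabrb1 were nearest (0.496) and Gabrb2 and Gabrd farthest apart (2.869). Within the chromosome 5 cluster Gabra2 and Gabrb1 differed by 0.571, Gabra4 and Gabrb1, 195 bases apart at their starts, by 1.437, and Gabra2 and Gabra4 by 1.804.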

How the data were processed

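The authors deposited raw counts of reads per gene for 9 libraries, which were used as deposited; all 9 columns were used. Per the labels' protocols, cDNA was primed on poly(A) and amplified by PCR without molecular identifiers. The submitters' processing notes name Trimmomatic 0.36, STAR 2.5.2b and the mm10 build. Which program counted reads, with which annotation and strandedness, is not given in the sources used here. Of 45706 identifiers 45143 matched GENCODE M21, the source of names, positions and lengths, and 16156 had no read.

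Tests used edgeR 4.0.16 (R 4.3.3) with its robust quasi-likelihood fit, TMM factors and the filterByExpr filter, in 1 fit of all 9 libraries by stage, two-sided, at an adjusted p of 0.05 over 17971 genes. With a common dispersion of 0.0394 (biological coefficient of variation 19.9%), spread between libraries rather than depth limits the precision of abundant genes. Each SE is approximate: the size of the log2 fold change divided by the root of F. RPKM used the length of merged exons. The tests were checked on simulated data. The labels do not say what a replicate number stands for. The deviations of same-numbered E9.5 and E14.5 libraries from their stage means correlated positively in all 3 pairs (0.37, 0.141 and 0.209). A fit with the number as a block was therefore made as an alternative. For replicate 2 of either stage the correlation was higher with replicate 3 of the other (0.185 and 0.202), so these values do not settle whether libraries are paired.

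Members, gene lists and pairs were chosen with earlier results of these data known. All members are named. From each other list and step, up to 3 called genes of the commoner direction, by size of fold, and 1 of the rarer were eligible, and nearest genes were the 3 closest with at least 5 CPM in a stage, clone names left out. Some subunit genes of the receptor enter counts and shares but are not reported here by name. Alternatives were median-of-ratios and upper quartile scaling, library totals, DESeq2 1.42.0, no filter, fits of only the stages compared, each library left out, a replicate block, other lengths and pseudocounts of 0.1 and 5. The coding length was added after seeing the data.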

Additional observations from a re-analysis of the deposited data

How the results depend on the processing

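Of 336 alternative values of the members' fold changes, 328 kept direction and side of the threshold and none reversed. The 4 that lost the call were all of Gabra2 from E14.5 to P60 (0.27 with library totals, 0.31 to 0.38 with a library left out), and the 4 that gained it were all of Gabrb2 in the same step (1.02 with DESeq2, 1.09 with upper quartile scaling, 1.25 without E14.5 replicate 3, and the block below). The scalings moved the median log2 fold change of all genes from E14.5 to P60 between -0.199 (library totals) and 0.096 (upper quartile), against -0.063. They split the called genes differently: 6089 higher and 7585 lower with library totals and 7248 and 6496 with upper quartile scaling, against 6601 and 7080. From E9.5 to E14.5 the split was 6104 and 5509, and 5781 and 5971 with median-of-ratios scaling. From 5 to 7 members were called in the second step.

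For Gabrb2 over Gabrb1 the log2 ratio change from E9.5 to E14.5 (0.85) turned to -0.18 with the coding length and ran from 0.60 to 1.23 with a library left out. From E14.5 to P60 (-0.036) it turned to 0.035 with the longest transcript and 0.12 with a pseudocount of 5, and ran from -0.42 to 0.21 with a library left out. Gabra2 over Gabra3 from E9.5 to E14.5 turned to 0.38 with the coding length and 0.55 with a pseudocount of 0.1. The members' share of alpha RPKM at P60 was 64.6% with the longest transcript and 60.3% with the coding length, and Gabrd's share 41.5% and 32.4%. For lengths and pseudocounts the change is in how the ratio is built, and for left-out libraries the cause was not tested.

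With the replicate number as a block, 12121, 14015 and 15081 genes were called, against 11613, 13681 and 14844, and Gabrb2 from E14.5 to P60 passed (1.05, adjusted p = 0.014). The block changed no other member's call. The labels do not say what the number stands for at any stage. Between P60 and the embryonic stages, correlations of the deviations of same-numbered libraries ran from -0.224 to 0.337, the negative ones with P60 replicate 3. Over all stages, the own number gave the highest correlation in 9 of 18 cases of a library and another stage.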
